A study of Mus musculus with 4 samples.

Results

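Pax7 occupancy around 38 genes of the contractile machinery of striated muscle was examined, out of 22380 protein_coding genes of the annotation. The 38 genes encode proteins of the sarcomere, together with a few that release calcium, return it to its store or supply the energy of contraction. Around them, 67 distinct Pax7 peaks were found among the 20579 peaks of the whole list. A peak counted for a gene when its summit, the base with the strongest ChIP signal in it, lay within 50 kb of the transcription start site (TSS) of that gene. This rule uses distance alone, but the 38 genes were picked with earlier results of these data known, so the counts below are a description of them. The genes were placed on the mouse genome NCBIM37 (mm9) with the GENCODE annotation of that build. The cluster of developmental and fast myosin heavy chain genes Myh1, Myh2, Myh3 and Myh8 was left out.

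The peaks came from chromatin immunoprecipitation followed by sequencing (ChIP-seq) of Pax7 in iPax7 cells, mouse embryonic stem cells that carry a doxycycline-inducible Pax7 transgene. The cells were differentiated in serum as embryoid bodies, and doxycycline was added at 1 µg/ml on day 3. PDGFRα+FLK1- cells were sorted on day 5, replated, and taken on day 9 of differentiation after 6 days of doxycycline. The Pax7 ChIP was done in 2 libraries, and 2 further libraries of input, which is sequenced chromatin without immunoprecipitation, came from cells given the same doxycycline. The Pax7 transgene was therefore switched on in every library, and no uninduced or differentiated cells were part of this comparison. Because peaks were called by the authors after merging the replicates, a single peak carries no error between replicates, and nothing below could be tested across samples. The list holds no read counts, so the depth behind a peak is unknown. Fold enrichment is the authors' ratio of the ChIP signal to the local background at the summit. A peak is only near a gene by distance, and which gene it acts on was not measured.

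Pax7 is a transcription factor with a paired domain and a homeodomain, each of which can contact DNA, and it marks the satellite cells, the stem cells of skeletal muscle. The sarcomere is the repeating unit of the myofibril, in which thick filaments of myosin slide along thin filaments of actin when calcium binds troponin. Thin filaments are anchored in the Z-disc and thick filaments are cross-linked in the M-band, while titin spans from one to the other. Many of these proteins, though not all, are made in quantity when a muscle progenitor leaves the cycle and differentiates. Many of their genes are therefore late genes of the myogenic programme.

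Of the 67 peaks, 7 held at least 1 of 5 Pax motifs within 50 bp of the summit. The sequences of 6 of them are printed to show what such a motif looks like within 50 kb of a contractile gene. They were chosen after the motif search, and the seventh, which lies in an exon of Tpm1, is not printed. The runs labelled Mylpf lie 208 bp from the TSS of Dctpp1 and 639 bp from that of Tbc1d10b. Each run is the plus strand of NCBIM37 (mm9) from 50 bases before to 50 after the summit, with the Pax motif in capitals. GTCACG, or CGTGAC when read on the other strand, is the core of a paired-domain site. ATTAGTCAT joins a homeodomain site to the start of a paired-domain site. TAAT and ATTA with 2 bases between them are a pair of facing homeodomain sites.

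Mylpf, 49.3 kb downstream, chr7:134404381-134404481: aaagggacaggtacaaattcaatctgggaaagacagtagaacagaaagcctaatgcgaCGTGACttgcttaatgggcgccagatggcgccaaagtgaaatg
Mylpf, 2.50 kb upstream, chr7:134352571-134352671: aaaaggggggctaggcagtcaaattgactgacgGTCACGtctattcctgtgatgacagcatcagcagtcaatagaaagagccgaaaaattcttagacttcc
Tnnc1, 10.4 kb upstream, chr14:32011069-32011169: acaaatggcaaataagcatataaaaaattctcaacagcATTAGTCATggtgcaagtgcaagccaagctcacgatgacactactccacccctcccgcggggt
Tnnt1, 0.331 kb upstream, chr7:4468265-4468365: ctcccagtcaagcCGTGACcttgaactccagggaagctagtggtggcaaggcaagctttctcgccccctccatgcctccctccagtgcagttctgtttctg
Neb, 8.90 kb downstream, chr2:52185371-52185471: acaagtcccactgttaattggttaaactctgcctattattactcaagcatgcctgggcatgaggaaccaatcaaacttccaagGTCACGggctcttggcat
Actc1, 42.3 kb upstream, chr2:113921513-113921613: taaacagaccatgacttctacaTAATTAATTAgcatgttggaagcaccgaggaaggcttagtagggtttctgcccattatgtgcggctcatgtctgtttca

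The strongest peak of the 67, 22.3 kb upstream of Tpm1, is shown as well. It held none of the 5 motifs in the searched window and so has no capitals. It did hold GTCAC, the core less its last letter, a word that was counted later.

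Tpm1, 22.3 kb upstream, chr9:66919496-66919596: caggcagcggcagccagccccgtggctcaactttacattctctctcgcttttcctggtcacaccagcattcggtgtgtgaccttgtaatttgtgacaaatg

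A Pax7 summit lay within 50 kb of the TSS of 33 of the 38 genes, which is 86.8%, while 55.2% of all protein_coding genes had one. Nearly all contractile genes therefore had a Pax7 peak in this window, and a little over 1 in 2 genes in general did. The other sarcomere, calcium and energy genes named further on lay between, with 53 of 75 genes, or 70.7%. The protein_coding genes include 1441 olfactory and vomeronasal receptor genes, of which 6.73% had a peak, and without them the share of the remaining 20939 protein_coding genes was 58.5%.

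**Figure D1:**
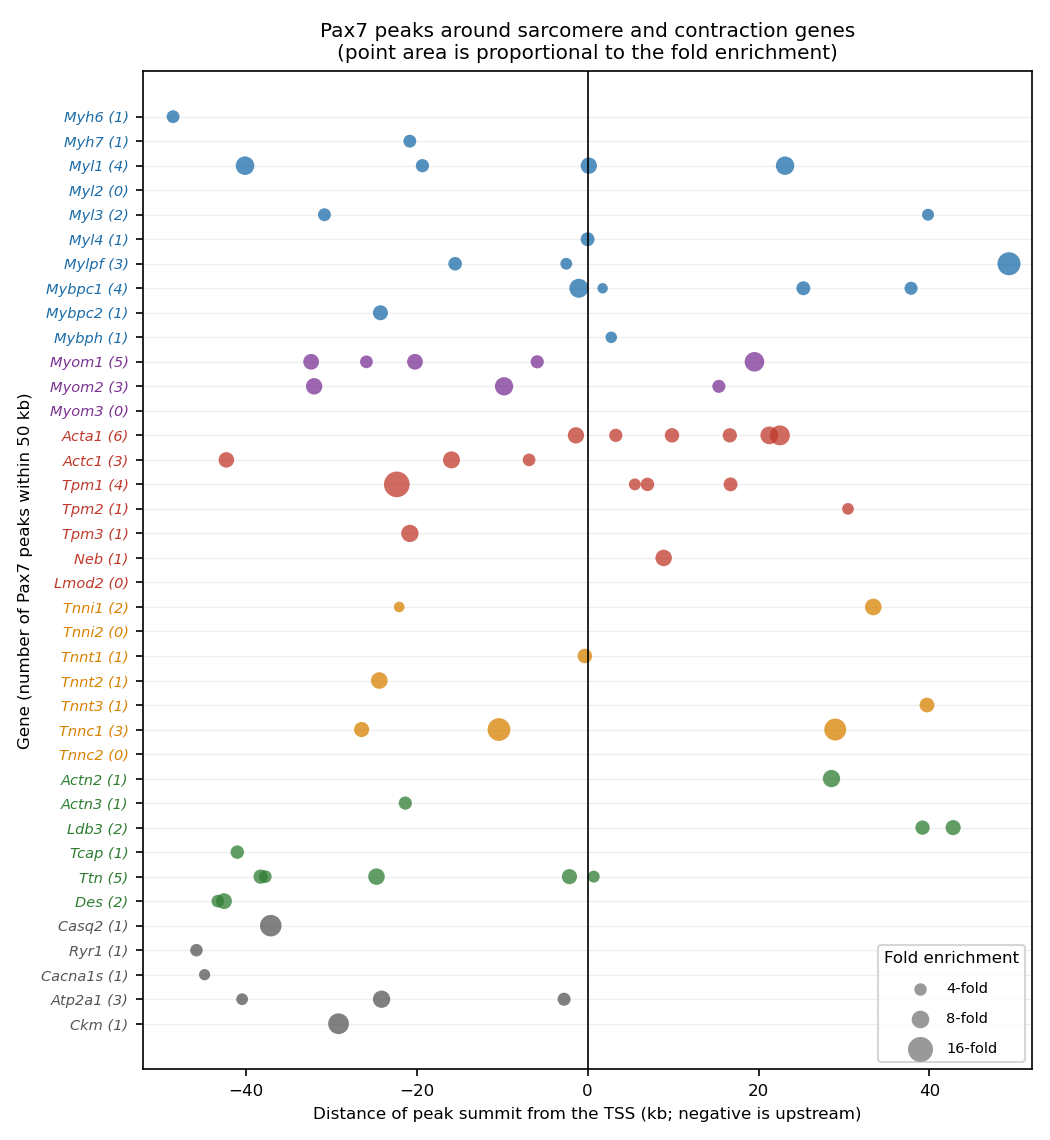
Each row is 1 of the 38 genes, with its number of peaks in parentheses and its role by colour (blue, thick filament; purple, M-band; red, thin filament; orange, troponin; green, Z-disc, titin and desmin; grey, calcium handling and creatine kinase). Points are Pax7 summits placed by distance from the TSS in kb, with area in proportion to fold enrichment, and the largest point is the 16.9-fold peak 22.3 kb upstream of Tpm1, while 5 rows are empty.

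The difference from genes in general depended on the distance. Within 1 kb of the TSS, 4 of the 38 genes (10.5%) had a summit against 11.8% of protein_coding genes, and within 2.5 kb it was 6 (15.8%) against 14.6%. At the starts of the contractile genes themselves the share with a Pax7 summit was thus near the background. Within 5 kb it was 9 genes (23.7%) against 18.0%, within 10 kb 14 genes (36.8%) against 24.2%, and within 25 kb 21 genes (55.3%) against 38.7%. All 38 genes had a summit within 100 kb, against 71.7% of protein_coding genes within that distance and 83.4% within 200 kb. The gap was therefore made of summits some way from the starts, and it was largest, among the distances counted, at 50 kb.

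**Figure D2:**
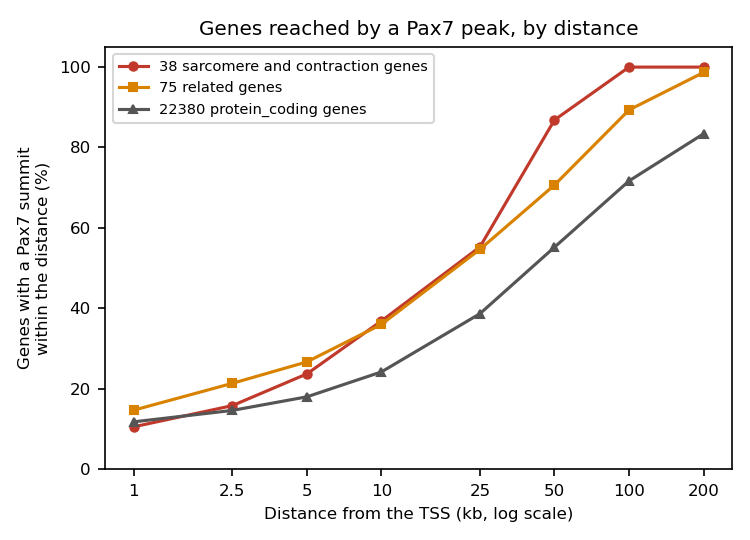
Percent of genes with a Pax7 summit within a distance of the TSS, with the distance in kb on a log scale. The 38 contractile genes ran near the protein_coding genes up to 2.5 kb and above them from 5 kb on, with 86.8% against 55.2% at 50 kb.

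By number, 5 genes had no peak, 18 had 1, 4 had 2, 5 had 3, 3 had 4, 2 had 5 and 1 had 6. The mean was 1.82 peaks per gene against 1.11 over all protein_coding genes, and the median was 1 in both. At least 2 peaks were found for 15 genes (39.5%, against 29.6%) and at least 3 for 11 (28.9%, against 14.6%). At least 4 peaks were found for 6 genes (15.8%, against 6.59%), and at least 5 for 3 genes (7.89%, against 2.68%), namely Acta1, Myom1 and Ttn. Counting each gene with each of its peaks gave 69 pairs, because 1 peak served both Myh6 and Myh7 and another both Tnni1 and Tnnt2. The summit was upstream of the TSS in 42 pairs and downstream in 27, and in 15 pairs it lay inside the body of the gene. The median length of the genes was 19.2 kb against 15.4 kb over all protein_coding genes, and the median number of other coding TSSs within 50 kb was 2 in both. Without the receptor genes named above, the medians of the protein_coding genes were 17.2 kb and 1 other coding TSS. The part of gene length and of neighbouring genes in the counts was not tested.

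**Figure D3:**
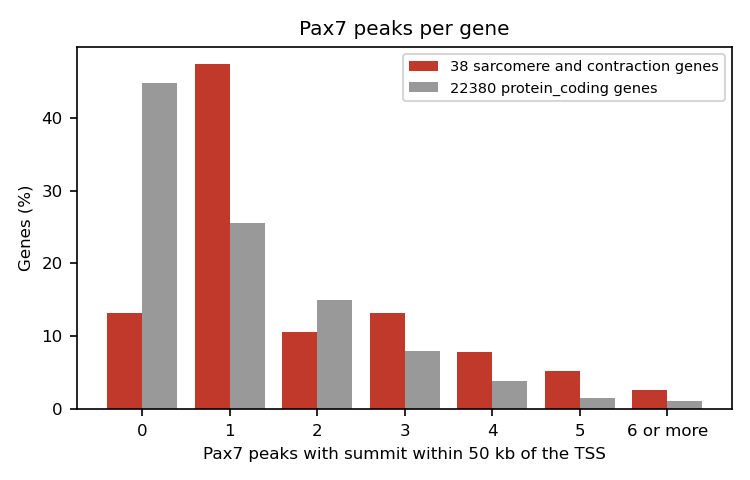
Percent of genes by number of Pax7 summits within 50 kb of the TSS, in red for the 38 contractile genes and in grey for the 22380 protein_coding genes. Of the contractile genes 5 had none and 18 had 1, and the red bars exceed the grey ones at 1, 3, 4 and 5 peaks and in the last bar, which pools 6 or more, although no contractile gene had more than 6.

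The thick filament was covered by 10 genes, of which 9 had peaks, 17 in all, whose fold enrichment ran from 2.76 to 13.6 around a median of 4.72. Over all protein_coding genes the share with a peak was 55.2%. Each of the 6 roles holds few genes, from 3 to 10, and none was tested against that share. Myl1, which encodes the essential light chain of fast myosin, had 4 peaks on chromosome 1. Of these, 2 were among the 12 strongest of the set. The first, 40.1 kb upstream (67031929 to 67032213), was 8.82-fold with a −log10 q of 29.3, and the second, 23.1 kb downstream (66968719 to 66968979), was 8.72-fold with a −log10 q of 26.8, both between genes. A further peak of 6.84-fold lay in an intron only 137 bp past the Myl1 TSS (66991559 to 66992049), and the remaining one, 19.3 kb upstream, was 4.48-fold. Myl1 thus had a strong peak on either side and another at its start.

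Mybpc1, the slow form of myosin-binding protein C, had 4 peaks on chromosome 10. The strongest was 9.27-fold with a −log10 q of 48.6 and lay 1.03 kb upstream of the TSS, between genes (88068766 to 88069105). It was above 90.7% of all peaks in the list, and of the 12 strongest peaks it lay the closest to the TSS of its gene. The other three were in introns, at 1.75, 25.2 and 37.8 kb downstream, with 2.76, 4.97 and 4.36-fold. The first of these, with a −log10 q of 2.71, was the weakest peak of the 67.

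Mylpf, the regulatory light chain of fast skeletal myosin, had 3 peaks on chromosome 7, each close to the start of another gene. The strongest of them, 13.6-fold with a −log10 q of 67.4, was at 134404232 to 134404564, 49.3 kb downstream of Mylpf and 208 bp from the TSS of Dctpp1. It held the paired core in the run printed above, and it was above 98.2% of all peaks. The others were 3.58-fold at 2.50 kb upstream, which also held the core, and 4.72-fold at 15.5 kb upstream. They lay 639 bp from the TSS of Tbc1d10b and 102 bp from that of Cd2bp2. The strong peak was the member nearest to the distance limit.

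The remaining thick filament genes had at most 2 peaks each, all weaker than the strongest ones of Myl1, Mybpc1 and Mylpf. Myl4, an atrial and embryonic light chain, had 1 peak of 4.95-fold whose summit was 7 bp from its TSS, the nearest of all 69 pairs. Mybph, a relative of myosin-binding protein C, had 1 of 3.42-fold in an intron 2.76 kb downstream. Mybpc2, the fast myosin-binding protein C, had 1 of 5.76-fold, which lay 67 bp from the TSS of Pold1. Myl3, the slow and ventricular essential light chain, had 2, of 4.27 and 3.67-fold. The cardiac heavy chain genes Myh6 and Myh7 lie side by side and shared 1 peak of 4.25-fold, which was 11 bp from the TSS of another gene, Ngdn. Myl2, the slow and ventricular regulatory light chain, had no peak within 50 kb, and its nearest summit was 66.1 kb away with 10.0-fold.

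The M-band was covered by 3 genes. Myom1, myomesin 1, had 5 peaks on chromosome 17, and the strongest was 9.80-fold with a −log10 q of 53.7 inside one of its introns, 19.5 kb downstream of the TSS (71388184 to 71388555). The other four lay upstream at 5.90, 20.2, 25.9 and 32.4 kb, with 4.45, 6.36, 4.16 and 6.35-fold. Myom2 had 3 peaks on chromosome 8, the strongest of 8.58-fold and a −log10 q of 34.7 at 9.78 kb upstream (15047729 to 15048077). Its others were 6.91-fold at 32008 bp upstream and 4.39-fold at 15355 bp downstream. Myom3 had none, and its nearest summit was 60.5 kb away with 4.42-fold. The 8 M-band peaks had the highest median of the 6 roles, 6.35-fold, and the mean of 2.67 peaks per gene was also the highest. Both values rest on 3 genes, 1 of them without a peak. Several of the peaks were nearer to another coding TSS. Myom1 was the nearest for 2 of its 5 peaks and Myom2 for 1 of its 3. The strongest peak of Myom2 was 1.79 kb from the TSS of BB014433.

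The thin filament was covered by 7 genes, of which 6 had peaks (55.2% over all protein_coding genes). There were 16 peaks in all, with a median of 5.75-fold. Acta1, skeletal muscle α-actin, had 6 peaks, the most of any of the 38 genes. They spanned 23.9 kb on chromosome 8 and all lay within an intron of Gm20388, an annotated gene that overlaps this stretch. The strongest was 10.2-fold with a −log10 q of 50.8 at 22.5 kb downstream (126395990 to 126396348), above 93.5% of all peaks. Next to it, at 21.3 kb downstream, was a peak of 8.09-fold (126397247 to 126397544). The peaks at 16.6, 9.87 and 3.30 kb downstream were 5.23, 5.35 and 4.53-fold. The last lay 1.37 kb upstream and was 6.80-fold, so the 2 ends of the row were stronger than its middle.

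Tpm1, α-tropomyosin, which lies along the actin filament and holds troponin, had 4 peaks on chromosome 9. The one upstream was the strongest of the 67, at 16.9-fold with a −log10 q of 98.6, and lay between genes at 66919333 to 66919761, above 99.4% of all peaks in the list. The others lay downstream at 5523, 6998 and 16725 bp with 3.62, 4.66 and 4.94-fold. The upstream peak thus stood far above the rest at the gene. Tpm2 (β-tropomyosin) and Tpm3 (the slow form) had 1 peak each, of 3.52 and 7.67-fold. They lay 399 bp from the TSS of Ccdc107 and 211 bp from that of 4933434E20Rik.

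Actc1, cardiac α-actin, which is also the main sarcomeric actin of the embryo, had 3 peaks on chromosome 2, all upstream. They were 4.13-fold at 6.86 kb, 7.40-fold at 15.9 kb (113895082 to 113895366) and 6.16-fold at 42.3 kb, and the last held the pair of homeodomain sites printed above. Neb, nebulin, which runs along the thin filament, had 1 peak of 6.98-fold in an intron on chromosome 2, 8.90 kb downstream (52185258 to 52185525), with the paired core. Lmod2, leiomodin 2, which elongates thin filaments, had none, and its nearest summit was 71.9 kb away with 10.8-fold.

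Troponin, the calcium switch of the thin filament, was covered by 7 genes, of which 5 had peaks (55.2% over all protein_coding genes). The 7 peaks had a median of 5.88-fold, and 6 of them were at least 5-fold, against 54.9% of the whole list. Tnnc1, the slow and cardiac calcium-binding subunit, had 3 peaks on chromosome 14, and 2 of these were among the 4 strongest of the set. One was 13.3-fold with a −log10 q of 69.4, 10.4 kb upstream in an intron of Nisch (32010915 to 32011285), and it held the joined site printed above, 8 bp from the summit. The other was 12.3-fold with a −log10 q of 60.6, 29.0 kb downstream between genes (32050312 to 32050683). The remaining one, 26.5 kb upstream, was 5.88-fold. The annotation holds a pair of gene models named Tnnc1, and the one whose length matched that of the RefSeq gene was used here.

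Tnnt1, slow troponin T, had 1 peak of 5.39-fold with a −log10 q of 11.0, 331 bp upstream of its TSS on chromosome 7 (4468161 to 4468421), with the paired core. Of the 4 genes with a summit within 1 kb of the TSS (Myl1, Myl4, Tnnt1 and Ttn) it was the only one whose peak held a Pax motif. Tnni1, slow troponin I, had 2 peaks, of 2.88 and 7.08-fold. The second, at 137712922 to 137713182 on chromosome 1, was also the single peak of Tnnt2, cardiac troponin T, 24.4 kb upstream of it. Tnnt3, fast troponin T, had 1 of 5.60-fold at 39.7 kb downstream. The fast troponin genes Tnni2 and Tnnc2 had none within 50 kb. Their nearest summits were 92.4 kb away with 5.73-fold for Tnni2 and 81.3 kb away with 11.2-fold for Tnnc2.

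Where 55.2% of all protein_coding genes had a peak, the Z-disc genes, titin and desmin, 6 in all, each had at least 1. Together they had 12, between 3.66 and 7.67-fold around a median of 5.24, so none of the 12 strongest peaks was among them. Ttn, which encodes the giant elastic protein titin, had 5 peaks on chromosome 2. They were 3.66-fold at 714 bp downstream, 5.90-fold at 2.13 kb upstream, 7.01-fold at 24.7 kb upstream, and 4.16 and 5.25-fold at 37.7 and 38.3 kb upstream. Both of these last peaks lay in an intron of Ccdc141. Ldb3, also known as Cypher, which links α-actinin to signalling proteins, had 2 peaks of 5.88 and 5.23-fold in its own introns, 42.8 and 39.2 kb downstream.

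Actn2, the α-actinin of all sarcomeric Z-discs, had 1 peak of 7.67-fold in an intron 28.5 kb downstream. Actn3, the α-actinin of fast fibres, had 1 of 4.47-fold at 21.3 kb upstream, in a coding exon of Bbs1. Tcap, telethonin, which caps titin at the Z-disc, had 1 of 4.64-fold at 40998 bp upstream. Des, desmin, the intermediate filament that ties myofibrils together, had 2 peaks of 4.09 and 6.43-fold at 43.3 and 42.6 kb upstream, beside the start of Dnpep. The second was 807 bp wide, the widest of the 67.

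The genes of calcium handling and Ckm, 5 in all, each had a peak (55.2% over all protein_coding genes). There were 7 peaks together, with a median of 4.35-fold. Casq2, the cardiac and slow calsequestrin that stores calcium in the sarcoplasmic reticulum, had 1 of 11.9-fold with a −log10 q of 46.0 at 37.1 kb upstream, between genes on chromosome 3 (101853075 to 101853425). Ckm, muscle creatine kinase, which regenerates ATP at the M-band, had 1 of 11.0-fold with a −log10 q of 44.4 on chromosome 7 (19967110 to 19967439). That peak was 29.2 kb upstream of Ckm and 67 bp from the TSS of Ercc2. Both were among the 6 strongest of the set.

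Atp2a1, the calcium pump SERCA1 of fast fibres, had 3 peaks, all upstream: 4.35-fold at 2.76 kb, 7.67-fold at 24.1 kb and 3.55-fold at 40.4 kb. The more distant pair lay at the starts of Tufm and Atxn2l. Ryr1, the calcium release channel, had 1 of 4.01-fold at 45.8 kb upstream in an exon of Ggn. Cacna1s, the voltage sensor that opens it, had 1 of 3.24-fold at 44.8 kb upstream, 295 bp from the TSS of Tmem9. Both parts of the release complex were thus reached by peaks that were weak and far away.

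**Figure D4:**
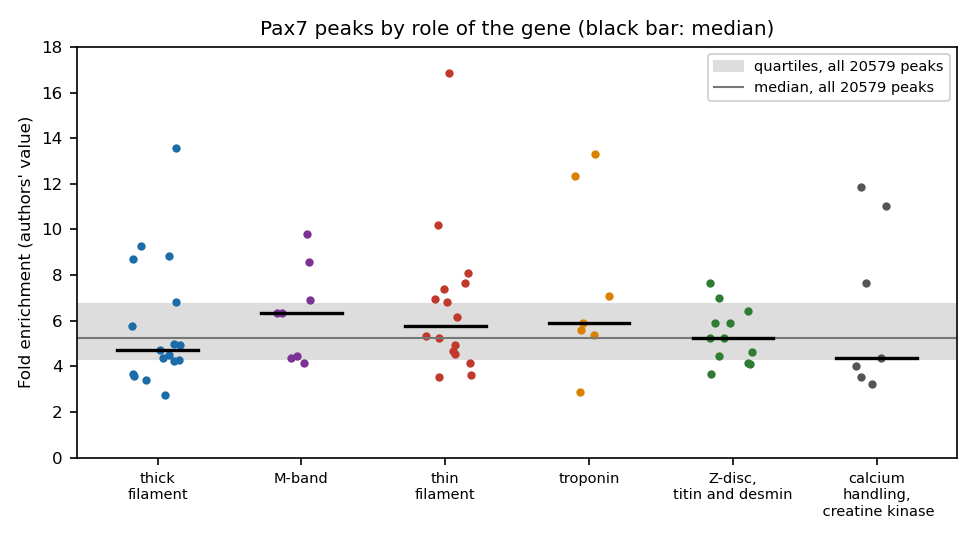
Fold enrichment (the authors' value) of the Pax7 peaks in each of the 6 roles, 1 point per peak, with the median of the role as a black bar and the quartiles of all 20579 peaks as a grey band. The medians ran from 4.35 for calcium handling and creatine kinase to 6.35 for the M-band, and the single highest point was 16.9 in the thin filament.

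By fibre type, 6 of 8 genes of fast fibres had peaks, 13 in all with a median of 5.60-fold, and 11 of 12 slow or cardiac genes had peaks, 15 in all with a median of 5.88-fold. The share over all protein_coding genes was 55.2%. With 8 and 12 genes the counts are small, and neither was tested against that share. The fast genes were Myl1, Mylpf, Mybpc2, Tnni2, Tnnt3, Tnnc2, Actn3 and Atp2a1. The slow or cardiac genes were Myh6, Myh7, Myl2, Myl3, Myl4, Actc1, Tnni1, Tnnt1, Tnnt2, Tnnc1, Actn2 and Casq2. Actn2 is thus among them although it is in all sarcomeric Z-discs. Mybpc1 with 4 peaks and Tpm3 with 1, named above as slow forms, were in neither group, so the counts depend on this grouping. The pairs of like subunits fell on either side. Slow Tnnc1 had 3 peaks and fast Tnnc2 none, slow Tnni1 had 2 and fast Tnni2 none, whereas Tnnt1 and Tnnt3 had 1 each and fast Mylpf had 3 where slow Myl2 had none. Whether the fibre types differ could not be tested on 1 merged list.

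Over all 67 peaks, fold enrichment ran from 2.76 to 16.9, with quartiles of 4.31 and 7.24 and a median of 5.35. The median of the whole list was 5.22 with quartiles of 4.32 and 6.74, and for the 11347 peaks within 50 kb of any protein_coding TSS it was 5.10. The median near contractile genes was thus close to that of the list. At least 5-fold enrichment was found in 37 (55.2%, against 54.9% of the list), and at least 10-fold in 7 (10.4%, against 6.99%), with a 95% Wilson interval of 5.15% to 20.0% that covers counting error only. Counted by gene, 23 of the 38 (60.5%) had a peak of at least 5-fold, against 37.8% of protein_coding genes. For a peak of at least 10-fold it was 6 (15.8%) against 6.83%, and these 6 were Tpm1, Mylpf, Tnnc1, Casq2, Ckm and Acta1. The width of the peaks was 174 to 807 bp with a median of 271 bp, against 252 bp for the list.

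Many of the peaks were closer to another gene. Of the 69 pairs, 35 had the listed gene as that with the nearest coding TSS, and this held for 16 of the 38 genes (42.1%, against 31.9% of protein_coding genes). For 17 genes, all the peaks were nearer to the TSS of another coding gene, and these were Myh6, Myh7, Myl3, Mylpf, Mybpc2, Tpm2, Tpm3, Tnni1, Tnnt2, Tnnt3, Actn3, Ldb3, Tcap, Des, Ryr1, Cacna1s and Ckm. Among genes with a peak within 50 kb, 16 of the 33 listed genes were the nearest to at least 1. Over all protein_coding genes with such a peak it was 7142 of 12353, a larger share. The difference was not tested. The 16.9-fold peak at Tpm1 and the 11.9-fold peak at Casq2 had their listed gene as the nearest. Of the 67 peaks, 21 (31.3%) were no more than 1 kb from a transcript start of the annotation, against 16.3% of the whole list and 27.6% of the 11347 peaks near a coding TSS. Taking the 5′ end of each gene as its start, 4 of these 21 were at a listed gene and 14 at another coding gene. The other 3 were near the start of a further transcript only, and 2 of them lay in exons of Tpm1, 5523 and 16725 bp downstream of its 5′ end. The remaining peaks were mostly in introns (27, or 40.3%) and between genes (16, or 23.9%), with 3 in exons. The median GC content was 52.5%, against 45.5% for the list and 47.5% for peaks near a coding TSS.

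The window of 50 kb leaves out peaks deep inside the longest genes. The bodies of 11 listed genes held 24 peaks, of which 9 lay more than 50 kb from the TSS. Of the 8 peaks in the body of Ttn 7 were of this kind, and Ryr1 held the other 2, at 4.01 and 4.25-fold. At the limit itself, the members just inside were those of Mylpf at 49.3 kb (13.6-fold), Myh6 at 48.5 kb (4.25-fold) and Ryr1 at 45.8 kb (4.01-fold). Those just outside were near Actn3 at 50.0 kb (7.52-fold), Tnni1 at 51.1 kb (4.16-fold) and Myl1 at 51.1 kb (5.41-fold).

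The paired core GTCACG was found on either strand within 50 bp of 5 of the 67 summits (7.46%, Wilson interval 3.23% to 16.3%), against 11.1% of the whole list and 13.5% of the peaks near a coding TSS. Around the same 67 peaks, windows 500 bp to the left and to the right of the summit held it in 1 each. Any of the 5 Pax motifs was found at 7 (10.4%), against 14.6% of the list. ATTAGTCAC was found at none of the 67, against 1.18% of the list. Taking 0 found to allow up to 3, its share could be up to 4.48%, and the upper Wilson bound is 5.42%. Its T form ATTAGTCAT was found at 1, against 0.928%. TAAT and ATTA spaced by 2 bases were found at 1, against 0.831%, and spaced by 3 bases at none, against 0.991%. The ATTAGTCAC form holds the first letters of the core and may overlap it. The search thus left 60 peaks, the 16.9-fold one at Tpm1 among them, without one of these exact words. That peak at Tpm1 did hold GTCAC, which is among the shorter words below. A pair of shorter words was added after the sequences were seen. TAATTA, a closer pair of homeodomain sites, was found at 1 of the 67 (1.49%), against 6.13% of the list and 5.18% of peaks near a coding TSS. GTCAC, the core less its last letter, was found at 25 of the 67 (37.3%), against 31.9% of the list and 33.6% of peaks near a coding TSS, and in 19.4% and 11.9% of the left and right flanks of the 67. The core and the control hexamer GCACTG, at 2 of the 67 (2.99%) against 6.86% of the list, both had a lower share here than in the list, and for both the share of the list lay within the Wilson interval (0.822% to 10.2% for the control).

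Sites of the factors that drive muscle differentiation were searched in the same windows. CAGCTG, an E-box of the kind bound by MyoD and myogenin, was found at 14 of the 67 summits (20.9%, Wilson interval 12.9% to 32.1%), against 15.7% of the list and 15.2% of peaks near a coding TSS, and in 0 and 2 of the flanks of the 67. The genes with such a peak included Myl1, Myom1, Actc1, Tnnc1, Actn2 and Ttn. CATTCC, the MCAT element bound by TEAD factors, was found at 8 (11.9%), against 11.0% of the list, and in 2 of each flank. The MEF2 site (CTA and TAG around AAAA), TCAGGTTTC, a MEF3 site, and the CArG box of serum response factor were found at none of the 67. Their shares in the list were 0.102%, 0.214% and 0.593%. A pair of peaks is shown with the E-box and MCAT letters in capitals, because both held such a word. They were picked after the search and are the one 37.1 kb upstream of Casq2 with an MCAT element, and the one 15.9 kb upstream of Actc1 with both.

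Casq2, 37.1 kb upstream, chr3:101853207-101853307: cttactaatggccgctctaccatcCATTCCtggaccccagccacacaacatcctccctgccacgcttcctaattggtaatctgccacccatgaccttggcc
Actc1, 15.9 kb upstream, chr2:113895169-113895269: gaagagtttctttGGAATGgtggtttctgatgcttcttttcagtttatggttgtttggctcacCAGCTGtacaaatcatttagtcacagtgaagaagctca

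**Figure D5:**
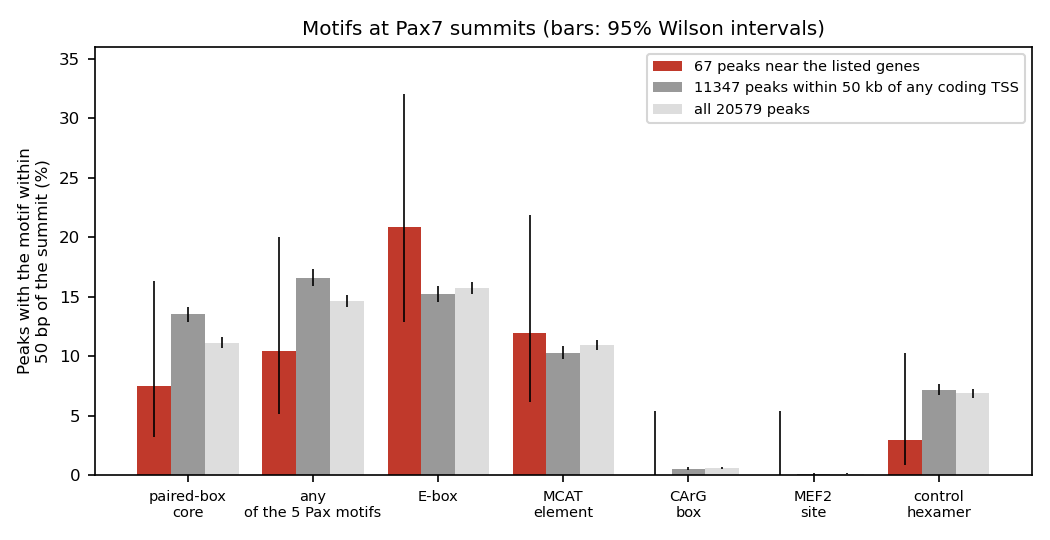
Percent of peaks with a motif within 50 bp of the summit, for the peaks near the 38 contractile genes and for the comparison sets named in the key, with error bars that are 95% Wilson intervals of counting error. The E-box was the most frequent of those plotted at the contractile genes, at 20.9% against 15.7% of the list, and the paired core stood at 7.46% against 11.1%.

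The promoters of the same genes were searched for these words as well, in longer windows than those of the peaks. RefSeq promoters of GRCm38.p6, which run from 250 bases before to 50 after the start, were given for 32 of the 38 genes, 38 promoters in all. CAGCTG was in 17 of them (44.7%), against 16.3% of all 32851 promoters, and CATTCC in 12 (31.6%), against 14.7%. A CArG box was in 6 (15.8%), of Acta1, Actc1, Ldb3, Myl3 and Myom1, against 1.63%. GTCACG was in 3 (7.89%), of Actn2, Lmod2 and Mybpc2, against 8.22%. The control hexamer GCACTG was in 11 (28.9%), against 17.6%, so some rise was not particular to the muscle words. The E-box, the MCAT element and the CArG box stood further above their shares of all promoters than the control did. These differences were not tested.

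Other genes of the same structures, 75 that are not among the 38, were counted in the same way. They held 135 distinct peaks with a median of 5.12-fold and a mean of 1.87 per gene, and 22 had none. By group, 21 of 32 other sarcomere genes had a peak, 11 of 14 genes of assembly and turnover, 14 of 18 other genes of calcium handling and 7 of 11 other genes of muscle energy, beside the 55.2% of all protein_coding genes. The groups hold few genes each, and none was tested against that background. The most peaks were at Lmod3, a leiomodin, and Synpo2, a Z-disc protein, with 7 each, Nrap and Synpo2l with 6 each, and Pdlim3, Myoz1 and Myl6b with 5 each. The strongest were at Jph2 (16.3-fold), junctophilin, which joins the sarcoplasmic reticulum to the surface membrane, Fhod3 (15.8-fold), a formin, Tmod1 (13.2-fold), which caps thin filaments, Pdlim5 (11.7-fold) and Cryab (11.3-fold), a small heat shock protein. Those of Pdlim5 and Cryab lay 58 and 154 bp from the TSS. Thus the wider set held peaks as strong as those of the 38, with a smaller share of genes reached (70.7% against 86.8%) and a like number of peaks per gene.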

How the data were processed

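The deposited list is 1 set of mm9 peaks from 2 Pax7 ChIP and 2 input libraries. Per the methods, the authors aligned single-end reads with bowtie2, discarded multiply mapping reads and, using Picard, duplicates, and ran MACS2 on the merged replicates. The fold enrichment is a ratio computed by the authors. Other deposited columns give a score, the summit position and −log10 values of p and q. Every measured column is a value of the merged libraries, and per-sample columns of unknown sample numbered 0. No depth is given in the list, so Wilson intervals cover counting error over peaks only.

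Summits were placed on NCBIM37 and its GENCODE annotation, with 1-based coordinates. The TSS is the 5′ end of the gene. Motif searches covered either strand within 50 bp of summits, and equal windows 500 bp away. The counting of summits near a TSS and the motif search were tested on simulated data. The 38 genes, the 75 related genes and the motifs were chosen with earlier results of these data known. All 38 were named. Detail was given for genes with a summit within 5 kb, the 6 genes with most peaks, the 12 strongest peaks and those beside the limit. Of the related genes, the 6 with most peaks (7 with a tie) and the 5 strongest were named. The software was samtools 1.23.1 and Python 3.11.15, with its packages pysam 0.24.0, scipy 1.17.1, numpy 2.4.6, pandas 2.3.3 and matplotlib 3.10.9. Alternatives are described with their effects in the closing section. RNA-seq and other assays were not analysed here.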

Additional observations from a re-analysis of the deposited data

How the results depend on the processing

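Of 69 combinations of a value and an alternative, 57 left the value within a set limit and 12 moved it beyond. The limit was 1.5 times either way for counts and the mean. For shares it was the 95% Wilson interval, and for the median fold enrichment it was 4.66 to 6.35. Values within the limit could still shift, as with 23 genes in place of 33 at 5-fold. With peaks of at least 5-fold only, the distinct peaks numbered 37, the mean was 1 per gene and the median fold enrichment 7.01. Within 25 kb, 21 genes had a peak, with 40 distinct peaks, a mean of 1.05 and 67.5% of peaks nearest to a listed gene. Within 100 kb there were 123 distinct peaks, a mean of 3.37 and 33.3% nearest to a listed gene. A motif window of 25 bp gave the paired core at 2.99% of peaks, and one of 100 bp, within the limit, gave 13.4%. Shares of the whole list at these widths are not given. A distance of 5 kb from a TSS took in 53.7% of the peaks. The share of genes with a peak was above that of protein_coding genes in each alternative run: 81.6% against 53.0% at a −log10 q of at least 5, 60.5% against 37.8% at 5-fold, 55.3% against 38.7% at 25 kb, 89.5% against 58.0% with the TSS of any transcript and 89.5% against 62.0% with gene bodies extended by 50 kb. The longer gene model of Tnnc1, tried after seeing the data, left 33 genes and 67 peaks. No paired analysis was possible because the list was called on merged replicates, which also means that no replicate could be left out.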
